A study of Mus musculus with 13 samples.

Results

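The vitamin K cycle genes Vkorc1, Vkorc1l1 and Ggcx were described across RNA-seq libraries of 2-cell mouse embryos: 3 genes of the 16739 listed in any embryo library. The set was chosen by function and selected on the lower Vkorc1 value in every library of one group, and its members were found by gene symbol. All embryos were made by in vitro fertilisation with sperm of Swiss males, and all fathers had received intraperitoneal injections on 5 days. Control fathers received the vehicle, PBS. AAE and AAS fathers received acrylamide, a reactive compound of heated starchy food, at 25 mg/kg per day. AAE sperm were collected 3 days after the last injection, so that they were exposed in the epididymis. AAS sperm were collected 24 days after it, so that they were exposed as spermatocytes in the testis. No interval is given here for Control sperm, so it is not known whether Control was matched in time to AAE or AAS. Each of the groups Control, AAE and AAS held 3 libraries, each made from a group of embryos. The labels do not give the number of embryos or fathers behind a library, so a p-value here measures the spread between libraries, which may be technical.

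Vitamin K is the cofactor of a carboxylase of the endoplasmic reticulum. Ggcx, the gamma-glutamyl carboxylase, uses reduced vitamin K to turn glutamate residues of a few secreted and membrane proteins into gamma-carboxyglutamate, and leaves the vitamin as an epoxide. Vkorc1, the target of warfarin, reduces the epoxide so that the vitamin can be used again, and Vkorc1l1 is its paralog with the same reaction. The cycle is best known from liver, where it serves the clotting factors, and from bone and vessel wall. A 2-cell mouse embryo holds RNA stored by the oocyte beside the first RNA of its own genome.

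On GRCm38, the assembly also called mm10, Vkorc1 lies on the minus strand at chr7:127893063-127895658, Vkorc1l1 on the plus strand at chr5:129942109-129986692 and Ggcx on the plus strand at chr6:72414279-72433359. The sequences just upstream of each gene are shown because the members differ in them, and all 3 genes were found in the RefSeq table of start regions for GRCm38.p6. Each runs 5′ to 3′ on the strand of its gene and ends at the base before the annotated gene, at chr7:127895659-127895867, chr5:129941859-129942108 and chr6:72414058-72414278. Capitals mark matches, on either strand, to the motifs CCAAT and GGGCGG and to the run ACTACAATT, which do not overlap each other here.
Vkorc1: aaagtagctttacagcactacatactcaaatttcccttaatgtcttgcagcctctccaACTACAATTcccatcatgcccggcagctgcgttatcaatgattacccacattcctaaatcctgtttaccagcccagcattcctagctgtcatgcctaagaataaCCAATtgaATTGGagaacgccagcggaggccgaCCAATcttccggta
Vkorc1l1: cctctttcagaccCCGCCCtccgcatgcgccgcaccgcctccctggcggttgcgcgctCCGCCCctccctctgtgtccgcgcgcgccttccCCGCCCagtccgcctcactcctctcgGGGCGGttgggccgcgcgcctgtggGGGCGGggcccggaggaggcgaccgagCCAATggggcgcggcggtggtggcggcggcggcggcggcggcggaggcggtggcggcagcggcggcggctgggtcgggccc
Ggcx: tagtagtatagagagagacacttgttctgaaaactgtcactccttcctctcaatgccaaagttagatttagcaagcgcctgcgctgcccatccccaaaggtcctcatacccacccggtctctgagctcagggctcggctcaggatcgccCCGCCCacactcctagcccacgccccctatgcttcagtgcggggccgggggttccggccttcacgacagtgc

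The Vkorc1 window of 209 bases held CCAAT, the box bound by NF-Y, at 3 places, and 29.8% of 32851 start regions cut to that length hold it at least once. It also held ACTACAATT once, against 0.307% of start regions. This run of letters begins the element bound by ZNF143 in human, and it was searched for only after the window had been read. The Vkorc1l1 window of 250 bases was richer in G and C, at 81.2%, than those of Vkorc1 (45.9%) and Ggcx (58.8%), and held 40 CpG against 6 and 11. It held GGGCGG, the box bound by Sp factors, at 5 places, where 32.7% of start regions hold it, and CCAAT once (33.8%). The Ggcx window of 221 bases held GGGCGG once (28.7%) and no CCAAT (31.1%). The TATA box TATAAA and the E-box CACGTG were searched too and had no match in the 3 windows, where they occur in 9.51% to 12.4% and 4.62% to 6.02% of start regions. Each share was read over the first bases of a start region, as many as the member's window has. Start regions begin 250 bases before a start, so the stretches of 209 and 221 bases end short of it.

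The values are FPKM, fragments scaled to transcript length and to the fragments of the library, so levels can be set beside each other between genes. Vkorc1 was the most abundant member in each of the 9 libraries, and lay above 86.8% to 93.8% of the listed genes in Control and AAE libraries and above 66.4% to 79.6% in AAS libraries. Vkorc1l1 lay near the middle, above 30.4% to 54.4% of listed genes, and Ggcx low, above 13.2% to 39.1%. Over the 9 libraries the mean level was 46.4 FPKM for Vkorc1, 3.48 for Vkorc1l1 and 0.829 for Ggcx. Genes needed a mean of 1 FPKM to enter the test across genes, which Vkorc1 and Vkorc1l1 passed and Ggcx did not. Vkorc1l1 was higher than Ggcx in each library except AAS replicate 1, where Ggcx stood at 2.70 FPKM and Vkorc1l1 at 1.54.

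**Figure D1:**
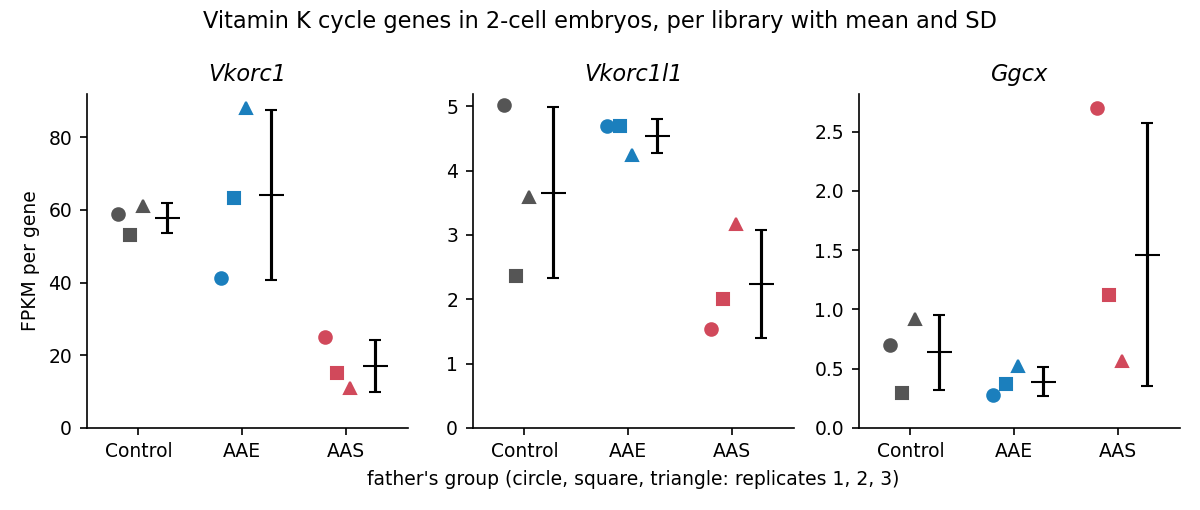
FPKM of each member (vertical axes from 0, with a scale of their own) in the 9 libraries by the father's group, with circles, squares and triangles for replicates 1, 2 and 3 and a bar for the mean and SD of 3 libraries. The 3 AAS values of Vkorc1, 11.1 to 25.1 FPKM, lie below the other 6, which start at 41.4.

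Vkorc1, which recycles the epoxide, was lower in AAS embryos. It stood at 58.9, 53.1 and 61.1 FPKM in Control replicates 1, 2 and 3, at 41.4, 63.2 and 88.2 in AAE, and at 25.1, 15.2 and 11.1 in AAS. Control libraries lay close together, AAE libraries spread to both sides of them, and the AAS libraries lay below all the others. The means were 57.7 ± 4.15 FPKM in Control, 64.3 ± 23.4 in AAE and 17.1 ± 7.17 in AAS (SD, n = 3 each), so Control stood 3.37 times and AAE 3.75 times as high as AAS. The difference of AAS minus Control in mean log2(FPKM + 1) was -1.77, with replicate SDs of 0.104 in Control and 0.558 in AAS on that scale. These values chose the gene, so no p is given for them. The nearest values on either side of the gap were 25.1 FPKM in AAS replicate 1 and 41.4 in AAE replicate 1.

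Of the 9766 genes tested, 840 (8.6%) had all AAS libraries below all Control libraries, 682 (6.98%) had them below all AAE libraries and 303 (3.1%) below both groups. Vkorc1 is in these counts because of the way it was chosen. In AAS against Control, limma called 0 of the 9766 genes at an adjusted p of 0.05 (0% called), Vkorc1 included, with 602 at an unadjusted p under 0.05. The authors' deposited table lists 35 of 10216 genes under 0.05 for that comparison, Vkorc1 among them with a log2 fold change of -1.65. Neither count is evidence on Vkorc1, since the comparison had chosen it.

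FPKM are relative to all RNA of a library, so less Vkorc1 RNA per embryo cannot be told apart from more RNA of other genes, nor fewer cells with Vkorc1 RNA from less of it per cell. AAS libraries listed 12173 to 12673 genes, Control libraries 13675 to 14392 and AAE libraries 11625 to 13914, and the part of this difference in the Vkorc1 result was not tested. AAE replicate 3 had the fewest genes listed and the highest Vkorc1 value. A single library cannot show what part the number of listed genes had. The median log2 difference of all tested genes was -0.11 in AAS, and the Vkorc1 difference was -1.63 when each library was scaled to the same total FPKM, which moved that median to 0.01. Of 8 markers of the 2-cell stage 7 were listed in all libraries, among them Zscan4c and Zfp352, and the summed level ran from 1294 to 1350 FPKM in Control, 1120 to 1429 in AAE and 1039 to 1248 in AAS. Of 10 oocyte markers 9 were listed in all libraries, at 1031 to 1367, 1159 to 1416 and 1176 to 1294 FPKM. Of 4 liver markers Apoa1 and Ttr were not listed, and the other 2 summed to at most 0.21 FPKM in a library. Of 8 cumulus cell markers Foxl2 and Ptx3 were not listed, and the other 6 summed to 3.90 to 5.61 FPKM in Control, 0.49 to 4.48 in AAE and 0.65 to 6.75 in AAS. Of 7 sperm markers 5 were not listed and the other 2 were at 0 in the AAS libraries, with sums of 0 to 1.61 in Control and 0.30 to 4.92 in AAE. Of 6 blood markers only Hba-a1 was listed, at 0.60 to 6.75, 1.51 to 8.58 and 0 to 2.15 FPKM in Control, AAE and AAS. The part of these markers in the Vkorc1 result was not tested.

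The comparison of AAE with Control was not used to choose the genes and asks whether exposure of sperm in the epididymis was followed by other levels. In it limma called 0 of 9766 genes (0% called), with 206 at an unadjusted p under 0.05, and the authors' deposited table lists 15 of 10179 genes under an adjusted p of 0.05, no member among them. Vkorc1 differed by 0.09 in AAE minus Control on the log2(FPKM + 1) scale (SE 0.329, limma adjusted p = 1), with a 95% interval of -0.63 to 0.81. The difference turned to -0.17 without AAE replicate 3 and was 0.37 without AAE replicate 1. Vkorc1l1 differed by 0.29 (SE 0.390, limma adjusted p = 1), with an interval of -0.57 to 1.15, and the value was 0.50 without Control replicate 1 and 0.08 without Control replicate 2. The intervals thus hold differences of either sign for both genes. In the authors' deposited table the log2 fold changes were 0.22 for Vkorc1 and 0.38 for Vkorc1l1, each with an adjusted p of 0.992.

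Vkorc1l1, the paralog, was at 5.02, 2.36 and 3.59 FPKM in Control replicates 1, 2 and 3, at 4.69, 4.70 and 4.24 in AAE, and at 1.54, 2.01 and 3.17 in AAS. The AAS values overlapped those of Control and lay below all AAE values, as in 6.98% of tested genes. The means were 3.66 ± 1.33 FPKM in Control, 4.54 ± 0.263 in AAE and 2.24 ± 0.839 in AAS (SD, n = 3 each). The difference of AAS minus Control was -0.51 on the log2(FPKM + 1) scale, given without a p because the comparison had chosen the set, and -0.31 without Control replicate 1. The authors' deposited table gives a log2 fold change of -0.59.

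The files give transcripts as rows without a name, 1 row for Vkorc1 and for Ggcx in each library and 1 to 3 for Vkorc1l1, for which RefSeq annotates 3 transcripts. The highest row held 45.7% of the Vkorc1l1 level in AAS replicate 3, 58.0% in AAE replicate 3, and 65.5% to 100% in the other libraries. AAS replicate 2 listed a single row, at 2.01 FPKM. With the highest row of each gene in place of the sum, the Vkorc1l1 difference of AAS minus Control was -0.45. Rows of different libraries cannot be matched, so no transcript was followed across groups.

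The members kept no fixed ratio across libraries. Vkorc1 stood at 11.7, 22.5 and 17.0 times the FPKM of Vkorc1l1 in Control, 8.82, 13.4 and 20.8 times in AAE, and 16.3, 7.58 and 3.50 times in AAS. Vkorc1 thus made up 92.2% to 95.7% of the summed level of both reductase genes in Control, 89.8% to 95.4% in AAE and 77.8% to 94.2% in AAS. The summed level of both was 55.4 to 64.7 FPKM in Control, 46.1 to 92.4 in AAE and 14.3 to 26.6 in AAS. That sum is mostly Vkorc1, which was chosen for its low AAS values, so the lower AAS sums follow from the choice. AAS replicate 1 had the highest Vkorc1 and the lowest Vkorc1l1 of its group, and AAS replicate 3 the reverse. Over the 9 libraries Pearson's r of log2(FPKM + 1) was 0.57 between Vkorc1 and Vkorc1l1, -0.37 between Vkorc1 and Ggcx and -0.69 between Vkorc1l1 and Ggcx. These are descriptions over libraries that share their groups.

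**Figure D2:**
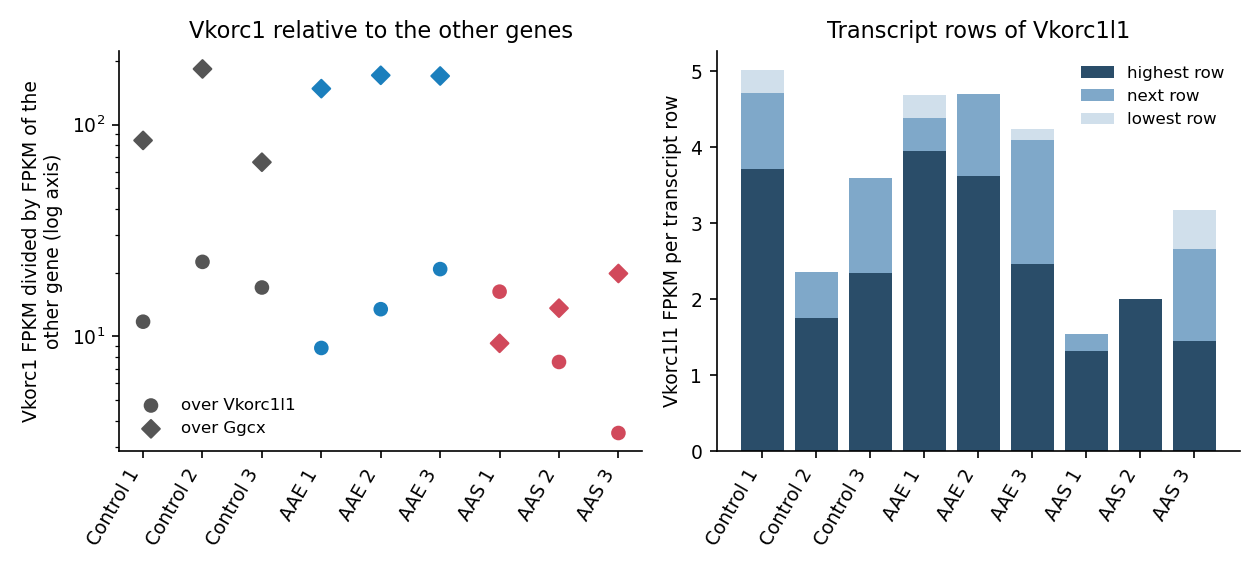
Left, the FPKM of Vkorc1 divided by that of Vkorc1l1 (circles) and of Ggcx (diamonds) in each library on a log axis, in grey for Control, blue for AAE and red for AAS. Right, the FPKM of the 1 to 3 unnamed transcript rows of Vkorc1l1 stacked from the highest to the lowest. The ratio of Vkorc1 to Ggcx is 66.4 to 183 in Control and AAE libraries and 9.28 to 19.8 in AAS libraries. Vkorc1 was chosen for its low AAS values, so the lower ratio there follows in part from that choice.

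Ggcx, the carboxylase, was listed at low values in each library. It stood at 0.70, 0.29 and 0.92 FPKM in Control replicates 1, 2 and 3, at 0.28, 0.37 and 0.52 in AAE, and at 2.70, 1.12 and 0.56 in AAS. AAS values lay above all AAE values, as in 3.88% of the genes whose mean reached 0.1 FPKM, and overlapped those of Control. The mean was 0.637 ± 0.320 FPKM in Control, 0.390 ± 0.121 in AAE and 1.46 ± 1.11 in AAS (SD, n = 3 each). On the log2(FPKM + 1) scale AAS minus Control was 0.51, and 0.17 without AAS replicate 1 and 0.79 without AAS replicate 3. AAE minus Control was -0.22, and -0.38 without Control replicate 2 and -0.09 without Control replicate 3. In the authors' deposited table the log2 fold change of AAS over Control was 1.29, and Ggcx is not in its comparison of AAE with Control. The Vkorc1 level was 66.4 to 183 times that of Ggcx in Control and AAE libraries, and 9.28 to 19.8 times in AAS libraries. Vkorc1 was chosen for its low AAS values, so a lower ratio in AAS follows in part from that choice. The ratio also rests on the low Ggcx values.

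Ggcx shares sequence with a far more abundant gene. Its annotated end overlaps that of Mat2a, which makes S-adenosylmethionine and lies on the opposite strand at chr6:72432796-72439556, by 564 bases. Mat2a was at 88.4, 81.8 and 65.7 FPKM in Control, 94.0, 77.2 and 31.9 in AAE, and 71.9, 32.2 and 71.7 in AAS. Whether the counting used strand is not given in the sources used here, so reads of the shared stretch may count for either gene and the low Ggcx values are uncertain. The part of Mat2a reads in the Ggcx values was not tested.

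No gene of the RefSeq table overlaps Vkorc1, and its neighbours on chromosome 7 were read beside it. Prss53, a serine protease gene on the same strand at chr7:127885444-127892965, begins 97 bases beyond the 3′ end of Vkorc1 and stood at 0 to 0.62 FPKM over the 9 libraries. On the other side Bckdk, the kinase of branched-chain keto acid dehydrogenase, begins 8414 bases away and stood at 0.30 to 2.28 FPKM. Kat8, a histone H4 acetyltransferase, was at 18.7, 15.4 and 17.0 FPKM in Control, 28.1, 21.3 and 11.5 in AAE and 10.2, 11.2 and 10.4 in AAS. Its AAS values lay below all other libraries, as in 3.1% of tested genes, and the gap was narrow, from 11.2 FPKM in AAS replicate 2 to 11.5 in AAE replicate 3. AAS minus Control was -0.63 on the log2(FPKM + 1) scale (SE 0.325, limma adjusted p = 0.787), which did not pass the test. Of the 10 nearest genes, 5 on each side, all were listed, 5 passed the filter on low values and 0 passed the test in AAE or AAS against Control. Among those that passed the filter, AAS minus Control was -0.43 for Stx4a, 0.29 for Zfp646 and -0.25 for Prss8.

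**Figure D3:**
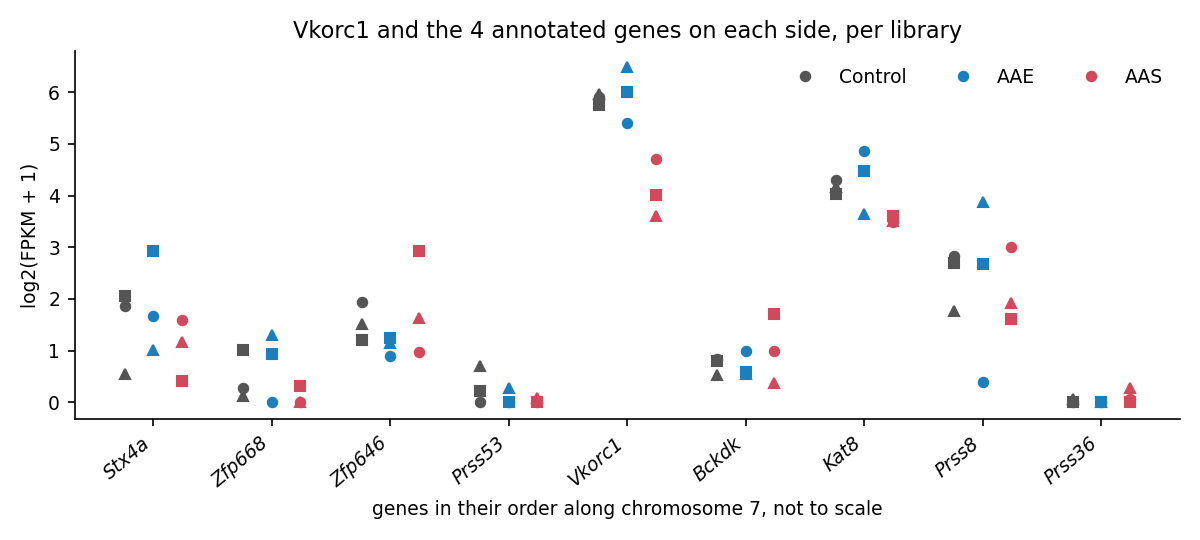
Levels as log2(FPKM + 1) (vertical axis) of Vkorc1 and the 4 annotated genes nearest on each side in their order along chromosome 7, per library, in grey for Control, blue for AAE and red for AAS, with circles, squares and triangles for replicates 1, 2 and 3. Vkorc1 has the highest Control values of the 9 genes, and for Vkorc1 and Kat8 the AAS libraries lie below the other 6.

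Around the other members, Gusb, the lysosomal beta-glucuronidase 2318 bases from Vkorc1l1, was listed at 0.41, 0.92 and 1.80 FPKM in Control, 1.34, 0.50 and 0 in AAE and 0, 0 and 0.43 in AAS. Zbed5 differed by -0.45 in AAS minus Control (limma adjusted p = 0.878), and Nupr1l and Asl, the argininosuccinate lyase gene, were below the filter. Beside Ggcx, Vamp8, a membrane fusion protein, was at 2.90, 6.83 and 1.75 FPKM in Control, 12.5, 8.38 and 7.40 in AAE and 0, 9.91 and 0.58 in AAS, with no call in either comparison (limma adjusted p = 1 and 0.864 for AAE and AAS against Control). Mat2a differed by -0.34 in AAE and -0.50 in AAS (limma adjusted p = 1 and 0.826).

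The genes whose pattern over the 9 libraries was most like that of Vkorc1, by Pearson's r of log2(FPKM + 1) among 9765 others, were Swi5 (0.949), Uchl3 (0.937), Zfp715 (0.937), Psg20 (0.933) and Xrcc3 (0.929). Their mean levels in Control, AAE and AAS were 93.9, 117 and 49.4 FPKM for Swi5 and 172, 180 and 106 for Uchl3. Those of Zfp715 were 2.08, 2.26 and 0.793 FPKM, and of Psg20 20.4, 21.9 and 11.4. Xrcc3 ran from 9.81 to 13.6 FPKM in Control, 14.9 to 32.4 in AAE and 2.75 to 5.49 in AAS. Swi5, Uchl3, Zfp715, Psg20 and Xrcc3 each had AAS values below all other libraries, as in 3.1% of tested genes. The gap was narrow for Uchl3, from 129.1 FPKM in AAS replicate 1 to 129.8 in AAE replicate 1. The genes most like Vkorc1l1 were Prkag1 (0.922), Msh4 (0.921) and Lrrc42 (0.917), and those most like Ggcx were Ttc14 (0.942), Fam204a (0.918) and Rsbn1 (0.909). With 9 libraries in 3 groups and 9765 genes ranked, high values of r are found by the ranking itself. Vkorc1 was chosen for its low AAS values, so low AAS values in the genes most like it follow from the ranking too.

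**Figure D4:**
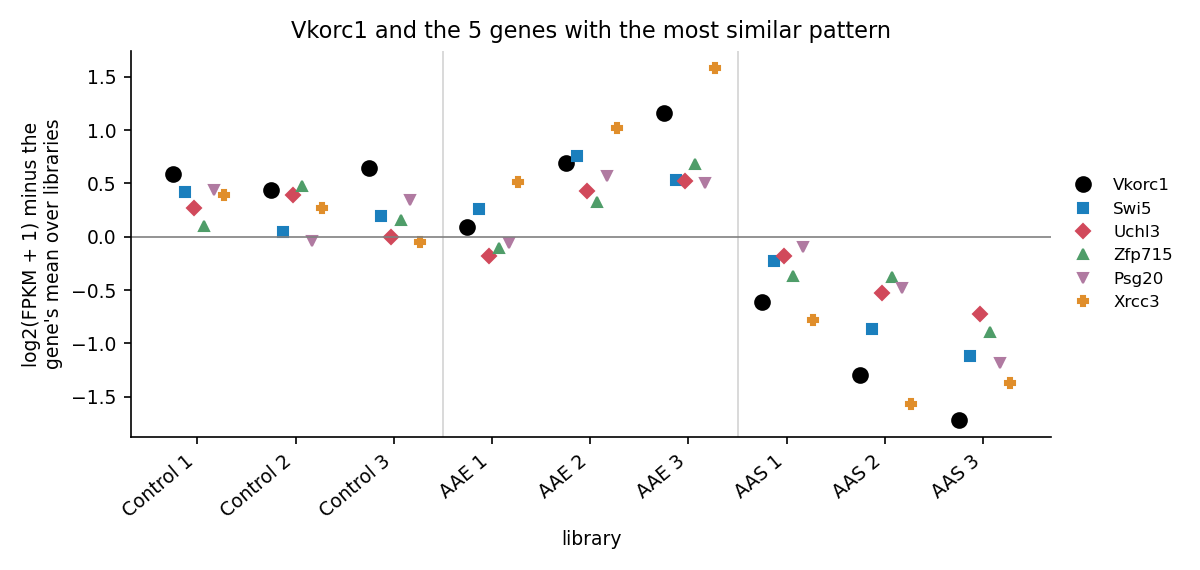
Log2(FPKM + 1) of Vkorc1 (black) and of the 5 genes with the highest Pearson's r to it over the 9 libraries, each as the difference from the gene's own mean (vertical axis), per library. All 6 genes lie below their mean in the 3 AAS libraries, which follows from the choice of Vkorc1 and the ranking, and r runs from 0.929 to 0.949.

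The other genes of vitamin K use, with Gpx4 added as an enzyme that acts beside Aifm2, formed a list of 43. Of these 40 were listed, 24 passed the filter on low values, and 0 rose or fell by limma's test in AAE or in AAS against Control. The median log2 difference of the 24 was -0.09 in AAE and -0.10 in AAS, beside -0.05 and -0.11 over all 9766 genes. In AAE 9 were above 0 and 15 below, and in AAS 11 above and 13 below. Over all 9766 genes, 55.4% were below 0 in AAE and 59.4% in AAS. None of the 24 had an unadjusted p under 0.05 by limma in either comparison. Of all 9766 genes, 206 had one in AAE and 602 in AAS. These are small shares, so none among 24 genes says little about the list.

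Among enzymes that handle vitamin K or serve as redox partners, 13 of 18 passed the filter. Nqo1, a quinone reductase, was at 0.98, 1.14 and 1.25 FPKM in Control, 3.19, 2.21 and 3.86 in AAE and 0.33, 0.74 and 1.86 in AAS. Its AAE values lay above the Control values, as in 364 of the 9766 tested genes (3.73%), and the difference of 0.93 did not pass the test (SE 0.425, limma adjusted p = 1). Aifm2, which reduces vitamin K in the cytosol and protects from ferroptosis in mammalian cells, was listed only in Control replicate 3, at 0.09 FPKM. The disulfide isomerases Pdia3 and P4hb, of the endoplasmic reticulum, were at 45.1 and 27.2 FPKM in Control, with differences in AAS of -0.16 and -0.60 (limma adjusted p = 0.934 and 0.796). Calu, the inhibitor calumenin, differed by 0.69 in AAS (limma adjusted p = 0.796).

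Of 16 genes of proteins that the carboxylase modifies, 5 passed the filter. F7 and Proz, a clotting factor and a related plasma protein, were not listed, and F2 and F9, prothrombin and factor IX, were at most 0.25 and 0.02 FPKM. F10, factor X, reached 0.84 FPKM. Proc, the anticoagulant protein C, passed the filter, at 5.02, 0 and 1.47 FPKM in Control, 1.92, 3.18 and 2.41 in AAE and 0, 2.91 and 3.16 in AAS, with groups that overlapped. Prrg1, a membrane protein with a gamma-carboxyglutamate domain, was the highest at 13.2 ± 3.62 FPKM in Control, 12.2 ± 2.29 in AAE and 19.9 ± 4.17 in AAS (SD, n = 3 each), a difference of 0.56 in AAS (limma adjusted p = 0.795). Prrg4 of the same family was at 0.02 to 1.44 FPKM in Control, 0.04 to 13.8 in AAE and 0.13 to 3.73 in AAS. Gas6, a ligand of receptor tyrosine kinases, was at 0.60, 2.71 and 2.20 FPKM in Control, 1.97, 3.48 and 6.21 in AAE and 1.86, 0.43 and 1.05 in AAS, with differences of 0.78 and -0.39 (limma adjusted p = 1 and 0.905). Of its 3 receptors Mertk passed the filter, with a mean of 5.95 FPKM in Control, 4.84 in AAE and 5.77 in AAS, while Tyro3 was at most 0.67 FPKM and Axl was listed only in AAE replicate 2, at 0.08.

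Of 5 genes of vitamin K or lipoprotein uptake 4 passed the filter. Cd36, a fatty acid and lipoprotein receptor, was at 19.7 ± 3.36 FPKM in Control, 28.8 ± 7.64 in AAE and 21.4 ± 7.82 in AAS (SD, n = 3 each). As for Nqo1, its AAE values lay above the Control values, as in 3.73% of tested genes. The gap was narrow, from 23.47 FPKM in Control replicate 3 to 23.69 in AAE replicate 2. The Cd36 difference of 0.51 in AAE did not pass the test (SE 0.306). Scarb1, the HDL receptor, was at 7.39, 8.10 and 4.34 FPKM in Control, 1.31, 5.04 and 3.14 in AAE and 19.5, 2.15 and 1.34 in AAS, where replicate 1 lay far above the other two. Lrp1, an endocytic receptor, was at 0.96 to 2.62 FPKM in Control, 1.08 to 1.28 in AAE and 2.22 to 3.31 in AAS. Gpx4, the lipid peroxide reductase that acts beside Aifm2, was at 3.90, 5.13 and 0.73 FPKM in Control, 2.30, 4.80 and 0.09 in AAE and 0.36, 0 and 1.06 in AAS. Gpx4 was counted among the 24 genes as an enzyme beside Aifm2, not as a gene of vitamin K use. Its difference of -1.40 in AAS had the largest size among the 24 genes and did not pass the test (SE 0.675, limma adjusted p = 0.780).

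**Figure D5:**
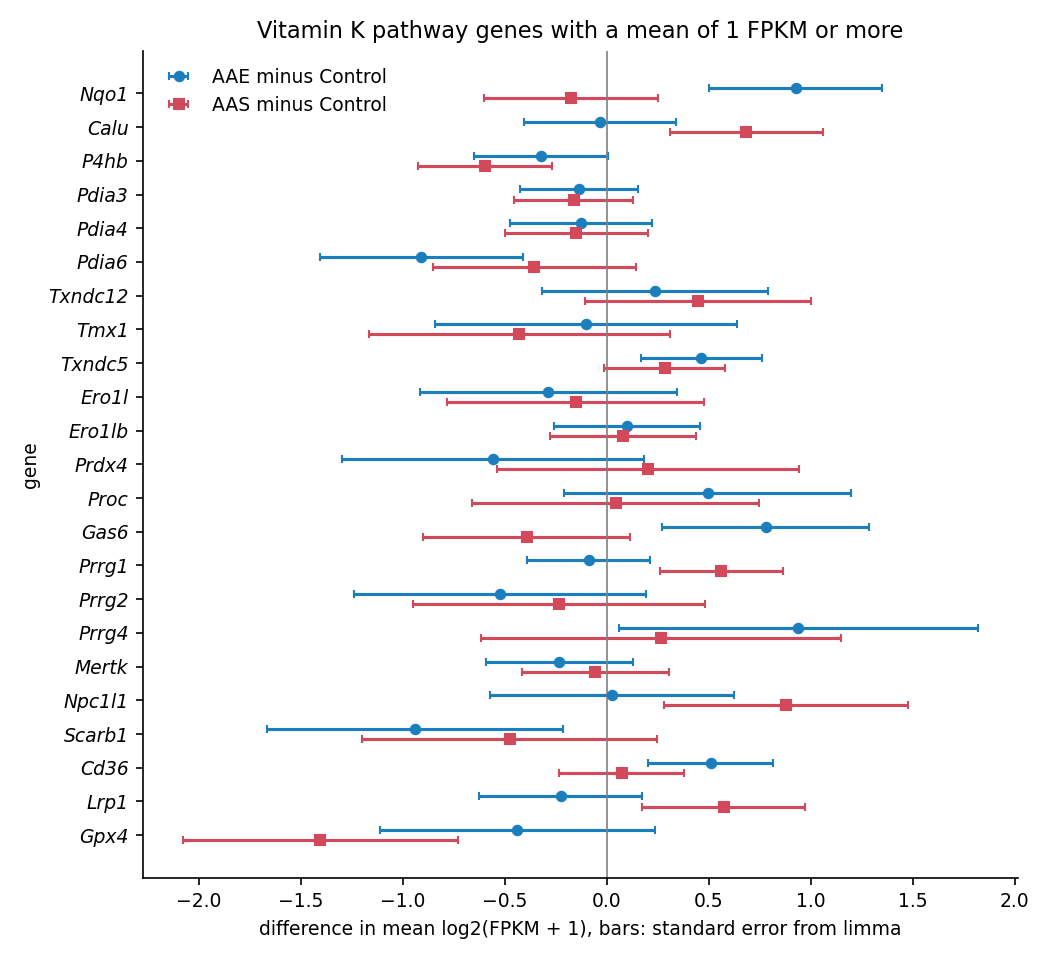
Difference in mean log2(FPKM + 1) from Control (horizontal axis) for AAE (blue circles) and AAS (red squares) of 23 of the 24 genes of the vitamin K list, Gpx4 included, whose mean reached 1 FPKM, with the standard error from limma. The differences lie on both sides of 0, and 0 of the genes shown passed the test in either comparison.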

How the data were processed

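RNA-seq libraries of 2-cell embryos were made with a Nugen Trio kit, as the labels' protocols state. HISAT2 2.0.4, DESeq2 and mm10 are named in the submitters' processing notes, which give no roles. The deposited files hold FPKM per transcript, computed by the authors, and leave out transcripts at 0. The authors' deposited series table gives log2 fold changes and adjusted p-values, used only where named. The sperm small RNA files were not used here. FPKM were summed per gene, and an unlisted gene was set to 0, although a missing value may be an estimate that failed. Genes whose mean reached 1 FPKM were kept, and log2(FPKM + 1) of all 9 libraries was fitted with limma 3.58.1 in R 4.3.3 (eBayes with trend, two-sided, Benjamini-Hochberg over 9766 genes). This scale understates changes of genes with low values. The FPKM give no depth, so no counting error is given. The fit was tested on simulated data with changes added only to more abundant genes, so that check says nothing of genes with low values.

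Members and lists were chosen with earlier results of these data known. Named genes are the members, pathway genes that passed the test or, as none did, the 3 of each sublist with the highest mean, with Aifm2 and Nqo1, the neighbours, and the genes with the highest r; some genes under this rule are not reported here. Calu, Gpx4, F2, F7, F9, F10, Proc and Proz were named after their values were seen. Of 16739 gene IDs, 16703 matched the RefSeq table of GRCm38.p6, which also gave the start regions. Alternatives were another pseudocount, filter, scaling, weighting and fit, and leaving out each library. Tables were made in Python 3.11.15 (pandas 2.3.3, NumPy 2.4.6) and plots with matplotlib 3.10.9.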

Additional observations from a re-analysis of the deposited data

Results flagged for a closer look

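In Vkorc1l1 each AAE library lay above the Control mean of 3.66 FPKM and each AAS library below it. Control replicate 1, at 5.02 FPKM, lay above all AAE values, and Control replicate 2, at 2.36, lay within the AAS range. AAS values lay below all AAE values, as in 6.98% of tested genes. The comparison of AAS with Control had chosen the set. The difference of AAS minus AAE was -0.80 on the log2(FPKM + 1) scale, and it was not tested.

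In Lrp1 each AAE library lay below the Control mean of 1.64 FPKM and each AAS library above it. Control replicate 1, at 2.62 FPKM, lay within the AAS range, and Control replicate 3, at 0.96, lay below all AAE values. AAS values lay above all AAE values, as in 3.88% of the genes whose mean reached 0.1 FPKM. The difference of AAS minus AAE was 0.80 on the same scale, and it was not tested. Both comparisons share the Control libraries.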

How the results depend on the processing

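The Vkorc1 difference of AAS minus Control ran from -2.06 to -1.51 when 1 library was left out, and from -1.83 to -1.63 under the pseudocount of 0.1, both scalings, the replicate block and the highest transcript row. That of Vkorc1l1 ran from -0.73 to -0.31 and from -0.68 to -0.42. The Ggcx difference ran from 0.17 to 0.79 and from 0.51 to 0.94. Vkorc1 was chosen for lower values in all AAS libraries, so its negative sign with 1 library left out was fixed in advance. In AAE minus Control, Vkorc1 ran from -0.17 to 0.37 when 1 library was left out, turning negative without AAE replicate 3, and Vkorc1l1 from 0.08 to 0.50. Ggcx moved from -0.22 to -0.51 with a pseudocount of 0.1, which weighs low values more. Array quality weights gave 0.51 for Vkorc1l1 and -0.09 for Ggcx in AAE. The counts of called genes and of called pathway genes were 0 under each alternative run. Total scaling moved the share of tested genes below 0 in AAS from 59.4% to 49.0%. Fitted without a filter, Ggcx had a limma adjusted p = 1 in AAE.

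Same-numbered libraries did not deviate together (correlations from -0.176 to 0.206, and 4 of 9 libraries correlated best with their own number), so the replicate block is not a paired analysis. With it the counts of calls were 0, and the AAE differences were 0.09 for Vkorc1, 0.29 for Vkorc1l1 and -0.22 for Ggcx (limma adjusted p = 1 for both genes tested). FPKM without depth limit what can be said of Ggcx and other genes at low values.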
